A study of Mus musculus with 6 samples.

Results

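Pdgfa, Pdgfb, Pdgfc, Pdgfra, Pdgfrb, Vegfa, Flt1 and Kdr encode the platelet-derived growth factor (PDGF) ligands A, B and C with both PDGF receptors, and vascular endothelial growth factor A (VEGF-A) with its receptors VEGFR1 and VEGFR2. These 8 genes were taken by their symbols from the 32285 genes of the count matrix, and each symbol was found once. They were measured by single-nucleus RNA sequencing of flash-frozen forebrain from 3 WT and 3 Npc1-/- mice at postnatal day 16, without treatment, in 6 droplet libraries. Npc1-/- mice carried the Npc1nih allele and were F1 hybrids of BALB/cJ and C57BL6/J parents, with WT littermates as controls. The allele is inherited and not limited to a cell type. Nuclei carry only a barcode suffix from 1 to 6, and no source used here ties a suffix to a mouse. WT and Npc1-/- were for that reason not set against each other, each library is given by its number, and the 6 libraries are not replicates of 1 group.

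PDGF ligands are secreted dimers that bind receptor tyrosine kinases: PDGF-AA acts on PDGFRα, through which it drives the division and survival of oligodendrocyte progenitor cells (OPCs), and PDGF-BB released by the endothelium acts on PDGFRβ to recruit pericytes to vessels. VEGF-A signals to endothelial cells mainly through VEGFR2 (Kdr), while VEGFR1 (Flt1) binds it tightly and can act as a decoy. In the developing brain, VEGF-A from neural and glial cells guides vessel growth.

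The matrix held 75878 barcodes and 497750379 unique molecular identifiers (UMIs, counts of captured molecules), with 8217 to 16118 barcodes and a median of 4469 to 5439 UMIs per nucleus in a library. Of the 75867 nuclei with a mitochondrial share under 10%, 39323 (51.8%) passed exactly 1 of 16 marker gates, which required a set number of different marker genes with a UMI. Another 26285 (34.6%) passed none, and 10259 (13.5%) passed several unrelated gates and were kept apart. No member served as a marker. Libraries 5 and 6 stood apart in the share of nuclei passing several gates (6.76% and 6.85%, against 12.8% to 18.2% in libraries 1 to 4). They also held the fewest endothelial-like nuclei, 163 and 110, against 448 to 611 elsewhere. Across libraries, 1264 barcodes had the sequence of a barcode in another library. All levels below are UMIs of a gene per 1000000 UMIs of the gate (CPM), and bracketed ranges are 95% exact intervals that cover counting error only. In each gate but the smooth muscle-like and inhibitory neuron-like ones, every marker was at least 2-fold above its level in the other gated nuclei, which the gating itself favours. Markers of other gates were present too. Excitatory neuron markers summed to 42.8% of their own-gate sum in endothelial-like, 56.2% in pericyte-like, 74.4% in microglia-like and 87.4% in smooth muscle-like nuclei. Astrocyte markers stood at 47.9% in fibroblast-like and OPC markers at 79.7% in committed nuclei. In excitatory neuron-like nuclei the highest such share was 20.3%. Each share is a sum of CPM over a marker list, so 1 marker with many UMIs can carry it. The shares of the single excitatory neuron markers are not given here.

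The 8 genes lie on 5 mouse chromosomes in the GRCm38 build (GENCODE vM21 gene models), and 4 of them are on chromosome 5. Pdgfra spans chr5:75152292-75198215 (+) and Kdr chr5:75932827-75978458 (-), with Kit between them. Flt1 spans chr5:147561604-147726011 (-) and Pdgfa chr5:138976014-138997370 (-). Pdgfb lies at chr15:79995874-80014977 (-), Pdgfc at chr3:81036416-81214040 (+) and Vegfa at chr17:46016993-46032369 (-). Flt1 and Kdr shared the endothelial-like gate as their highest and Vegfa, their ligand, did not, so the 250 bases upstream of the RefSeq start sites of these 3 genes are shown (GRCm38.p6, 5' to 3' on the gene's strand, at chr5:147726012-147726261, chr5:75978456-75978705 and chr17:46032378-46032627, all minus). Capitals mark GGGCGG (the GC box) and TGACGTCA (the cAMP response element). They also mark CCGGAA and ACGTG, 1 form each of the ETS core and of the core bound by HIF. Each was searched on both strands. Other forms were not searched, so the counts below are of these letters only.
Flt1: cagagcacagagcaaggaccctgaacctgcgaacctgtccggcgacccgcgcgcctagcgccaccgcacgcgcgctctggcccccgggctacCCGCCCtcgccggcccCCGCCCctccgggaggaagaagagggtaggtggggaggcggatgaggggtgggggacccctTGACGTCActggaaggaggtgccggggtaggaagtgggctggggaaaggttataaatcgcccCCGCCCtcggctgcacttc
Kdr: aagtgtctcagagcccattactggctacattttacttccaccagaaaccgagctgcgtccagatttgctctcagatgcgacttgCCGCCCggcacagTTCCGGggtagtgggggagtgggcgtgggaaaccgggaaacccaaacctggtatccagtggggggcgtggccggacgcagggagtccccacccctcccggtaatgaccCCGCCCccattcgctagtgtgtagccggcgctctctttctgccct
Vegfa: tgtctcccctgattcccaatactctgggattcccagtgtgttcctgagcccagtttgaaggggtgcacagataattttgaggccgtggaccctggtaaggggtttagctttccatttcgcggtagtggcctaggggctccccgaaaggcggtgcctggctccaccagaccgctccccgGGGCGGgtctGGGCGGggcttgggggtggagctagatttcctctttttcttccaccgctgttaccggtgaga
The Flt1 window held 3 GC boxes and 1 cAMP response element, the Kdr window 2 GC boxes and 1 ETS core, and the Vegfa window 2 GC boxes. A second Vegfa start site, not shown, had 1 GC box and 1 HIF core upstream. That window, chr17:46025164-46025413, lies within the span of the Vegfa gene itself, and whether the site is used in these nuclei was not tested. Among 32851 windows of the same length in the RefSeq table, 32.7% held the GC box, 12% the ETS core, 16.6% the HIF core and 1.55% the cAMP response element. The Pdgfra and Pdgfc windows held none of the 4 motifs. The 2 Pdgfa windows, which also lie within the span of their gene, held 1 and 2 GC boxes.

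Across the gates, every member had 1 gate whose pooled level was above the next beyond counting error (plot of levels by gate), which for Pdgfa rested on library 1 and on library 6. Counts of reads at the 3' end do not allow levels to be compared between genes, so each gene is compared with itself. To read the calls, 18958 genes with at least 100 UMIs over the gated nuclei were put through 1 rule: at least 2-fold above all other gated nuclei, pooled and in 6 of 6 libraries. The rule called 14 pairs of member and gate in 9 gates. These were Pdgfra in the OPC-like gate (which called 2.31% of all genes), the committed oligodendrocyte-like gate (2.95%) and the fibroblast-like gate (5.52%), Pdgfrb in the pericyte-like (2.83%), fibroblast-like and astrocyte-like gates (7.41%), and Flt1, Kdr and Pdgfb in the endothelial-like gate (8.49%). The ligand calls outside the vessel were Vegfa in the astrocyte-like gate, Pdgfc in the mature oligodendrocyte-like (4.28%) and choroid plexus-like gates (4.53%), and Pdgfa in the choroid plexus-like and ependymal-like gates (6.07%). No member was called in a neuronal, microglia-like or macrophage-like gate, and the share of all genes called there is not given here. Pdgfc in macrophage-like (2.42-fold) and Pdgfb in microglia-like nuclei (2.21-fold) passed 2-fold when pooled, but each in only 3 of 6 libraries. The smooth muscle-like gate could give no call, since library 6 held no such nucleus. Pdgfrb was 21.9-fold above the other gated nuclei there, from 14.4-fold to 47.0-fold in the 5 libraries with such nuclei.

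**Figure D1:**
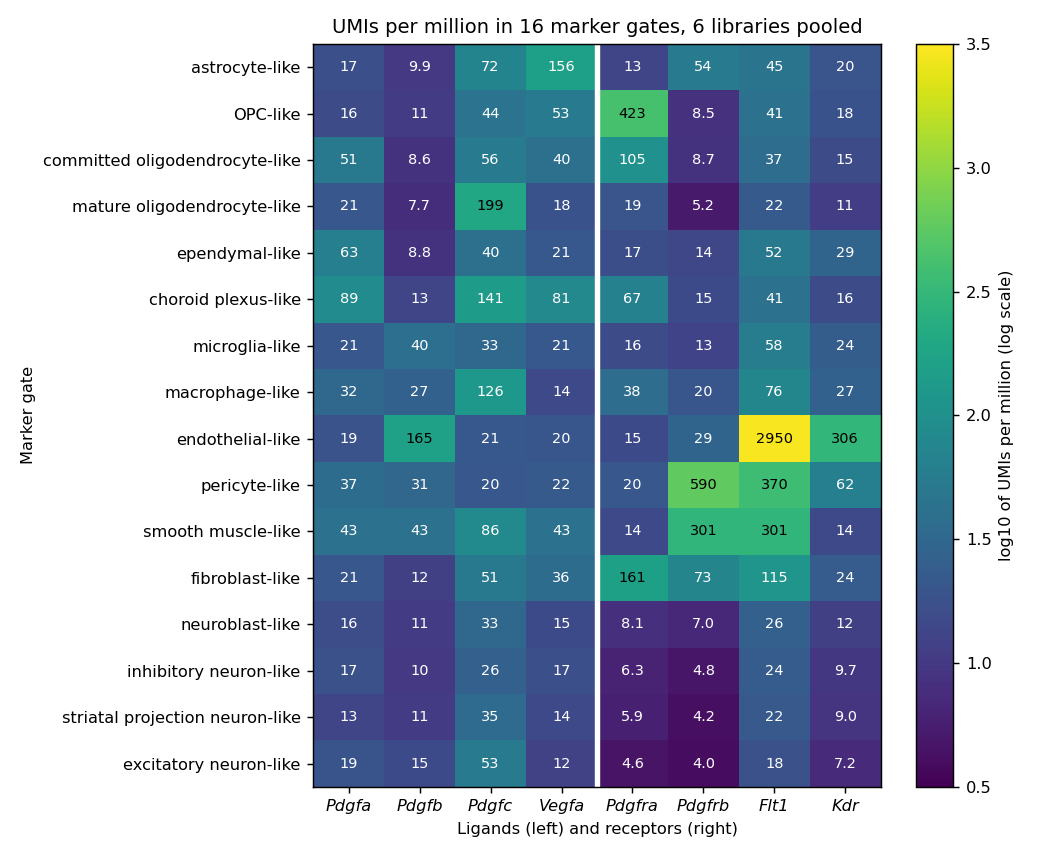
Level of each ligand and receptor (columns) in CPM in 16 marker gates (rows), with the 6 libraries pooled; colour is the log10 level and the printed number the level itself. Flt1 and Kdr peaked at 2950 and 306 in the endothelial-like gate, Pdgfrb at 589.8 in the pericyte-like gate and Pdgfra at 423 in the OPC-like gate.

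Pdgfra, the receptor that marks OPCs, was highest in OPC-like nuclei at 423 CPM (410.5 to 436, 4359 UMIs). Its levels in libraries 1 to 6 were 484, 432, 406, 287, 502 and 468 CPM, so library 4 was the lowest and the others lay between 406 and 502 CPM. Fibroblast-like nuclei were next with 161 CPM (146 to 177), from 139.9 CPM in library 1 to 214 CPM in library 6, and did not overlap the OPC-like range in any library. The OPC-like gate was 2.63-fold above the fibroblast-like gate (2.38 to 2.91) and higher in 6 of 6 libraries. Committed oligodendrocyte-like nuclei followed at 105 CPM, and the log2 ratio of OPC-like over committed nuclei went from 2.01 to 3.40 with 1 more marker required. In committed nuclei Pdgfra stood at 24.8% of its OPC-like level, below each of the 11 OPC markers, which summed to 79.7%. Choroid plexus-like nuclei held 66.6 CPM (53.5 to 81.8), while the 4 neuronal gates held 4.58 to 8.07 CPM. From the macrophage-like gate (37.9 CPM) down to the astrocyte-like gate (13.4 CPM), no neighbouring pair within this run differed beyond counting error. With every nucleus thinned to 1500 UMIs, 46.6% of OPC-like nuclei held a Pdgfra UMI (70.6% unthinned, median depth 3532.5 UMIs), against 22.8% of fibroblast-like nuclei. In excitatory neuron-like nuclei, the gate of lowest Pdgfra level, the share was 0.996% (3.98% unthinned, median depth 9036 UMIs). OPC markers were also present in the fibroblast-like gate: the 11 markers summed to 793 CPM there, from 394 to 1081 CPM over libraries, or 6.84% of their sum in OPC-like nuclei, and none was at 0. Pdgfra was at 38.0% of its OPC-like level, above 10 of those 11 markers. In choroid plexus-like nuclei Pdgfra was 3.96-fold above ependymal-like nuclei (2.49 to 6.57), higher in 6 of 6 libraries. It stood there at 41.4% of its fibroblast-like level, above each of the 12 fibroblast markers, which summed to 181 CPM (143 to 295 over libraries), and above 10 of the 11 OPC markers. In thinned nuclei the log2 ratio of choroid plexus-like to ependymal-like was 2.64 in place of 1.99.

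Within the oligodendrocyte lineage, the pooled level of Pdgfra fell, and that of Pdgfa, the gene for its ligand, rose and fell with stage. The committed gate was divided by its own markers into an early part with at least 2 of Gpr17, Bmp4 and Neu4 and fewer than 2 of Enpp6, Itpr2, Casr and 9630013A20Rik, a middle part with at least 1 of the former and 2 of the latter, and a late part with none of the former and at least 2 of the latter. These held 172, 1429 and 492 nuclei. Pdgfra went from 423 CPM in OPC-like nuclei to 273 CPM (235 to 314) in the early, 93.2 CPM (86.0 to 101) in the middle and 40.8 CPM (33.2 to 49.6) in the late part, and reached 19.4 CPM in mature oligodendrocyte-like nuclei. The early part was 6.68-fold above the late part, with the early part higher in 6 of 6 libraries. Its late levels in libraries 1 to 6 were 35.5, 52.0, 22.6, 25.4, 34.9 and 64.2 CPM, all below the lowest early level, 219 CPM in library 4. Pooled, Pdgfa was at 15.6 CPM (13.3 to 18.2) in OPC-like nuclei and 27.1 CPM (16.3 to 42.4, 19 UMIs) in the early part. It was at 41.5 CPM (36.7 to 46.7) in the middle part, 91.7 CPM (80.2 to 104) in the late part and 20.5 CPM in mature nuclei. The early and middle intervals overlapped. Over libraries Pdgfa ran from 0 to 72.7 CPM in the early and from 15.5 to 59.2 CPM in the middle part. In libraries 2, 3 and 4 the middle level was below the early level. The late part was 5.87-fold above OPC-like nuclei (4.78 to 7.23) in 6 of 6 libraries and 4.47-fold above mature nuclei in 5 of 6. The late values were 119, 78.6, 77.0, 12.7, 113 and 88.3 CPM in libraries 1 to 6, so that library 4 was far below the rest, with 2 UMIs. Pdgfc, which codes for a ligand that also binds PDGFRα, lay between 44.2 CPM in OPC-like nuclei and 62.6 CPM in the late part and was at 199 CPM (189 to 209) in mature nuclei, 3.17-fold above the late part (2.69 to 3.77), with the mature gate higher in 6 of 6 libraries. In committed nuclei thinned to 1500 UMIs, 9 of 243 nuclei with a Pdgfra UMI also held a Pdgfa UMI (3.70%, 1.71 to 6.91), and 137 of 1924 without one did (7.12%, 6.01 to 8.36). These intervals overlapped, and the difference was not tested.

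**Figure D2:**
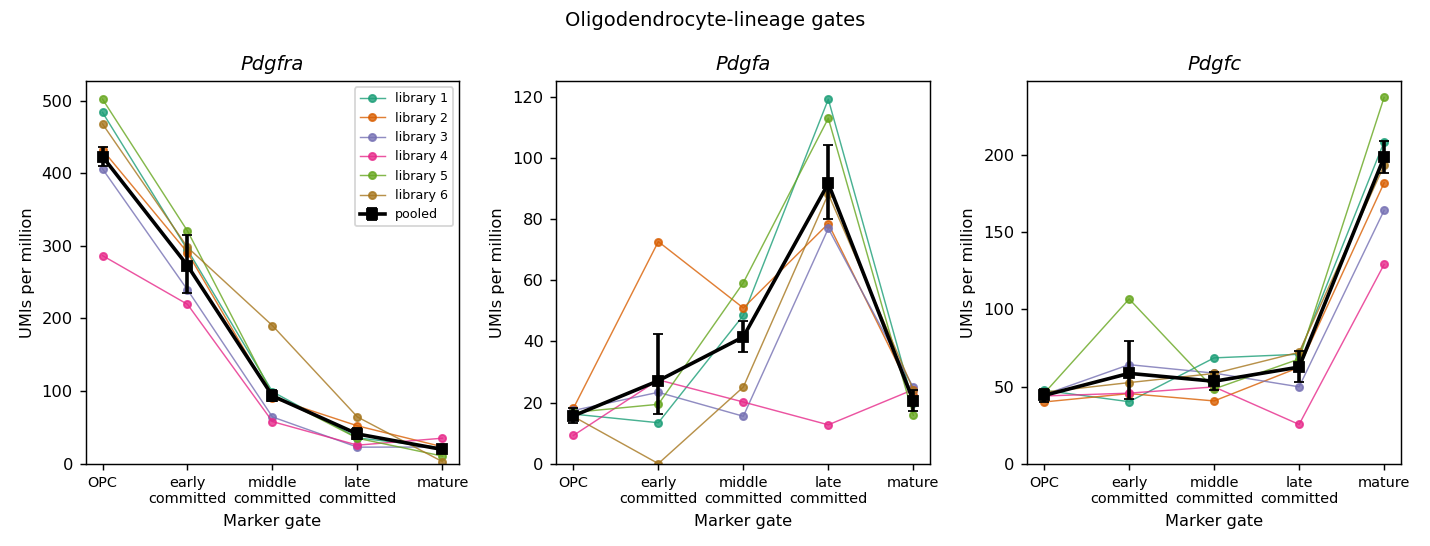
Levels in CPM (y axes, from 0) of Pdgfra, Pdgfa and Pdgfc in 5 oligodendrocyte-lineage gates (x axes); coloured points are the 6 libraries and black squares the pooled level with its 95% counting interval. Pooled over libraries, Pdgfra fell from 423 to 19.4, Pdgfa peaked at 91.7 in the late committed part and Pdgfc was at 199 in mature nuclei.

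Dividing OPC-like nuclei, those with at least 3 of 8 mitotic markers, held 557 CPM of Pdgfra (491 to 629, 101 nuclei) and the other OPC-like nuclei 417 CPM. The ratio was 1.34-fold (1.18 to 1.52), and dividing nuclei were higher in 6 of 6 libraries, each by a log2 ratio between 0.17 and 0.58. Dividing nuclei were deeper, with a median of 4343 against 3505 UMIs, and with all nuclei thinned to 1500 UMIs the log2 ratio was 0.33 in place of 0.42. It was 0.66 with nuclei of several gates kept.

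Pdgfrb, the receptor of PDGF-BB on mural cells (chr18:61045150-61085061, +), was highest in pericyte-like nuclei at 589.8 CPM (547 to 635, 693 UMIs). Libraries 1 to 6 held 562, 630.1, 522, 465, 977 and 937 CPM, with libraries 5 and 6 above the other 4. These 2 libraries rested on 27 and 23 pericyte-like nuclei. Smooth muscle-like nuclei, only 18 in all and none in library 6, held 301 CPM (186 to 460.02), 1.96-fold below the pericyte-like level (1.27 to 3.19) and lower in 5 of 5 libraries. With nuclei of several gates kept, this difference was within counting error. Fibroblast-like nuclei held 72.5 CPM (62.7 to 83.5) and astrocyte-like nuclei 54.1 CPM (51.2 to 57.0), and the pericyte-like gate was 8.13-fold above the former in 6 of 6 libraries. The fibroblast-like level was 1.34-fold above the astrocyte-like level (1.15 to 1.56) in 5 of 6 libraries, and the order turned in library 6. With TMM scaling, which centres the gates on a shared set of genes, this difference was within counting error.

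The astrocyte-like level of Pdgfrb was 13.4-fold above the excitatory neuron-like level (4.02 CPM), and astrocyte-like nuclei were higher in 6 of 6 libraries. Counted per nucleus the log2 ratio was 2.42 in place of 3.75. The astrocyte-like levels in libraries 1 to 6 were 62.3, 49.0, 50.6, 42.2, 62.8 and 68.3 CPM, all above the excitatory neuron-like range of 1.95 to 6.57 CPM. Pericyte markers in astrocyte-like nuclei summed to 212 CPM (156 to 247 over libraries), 3.79% of their pericyte-like sum, with none of 8 at 0. Pdgfrb stood at 9.17% of its pericyte-like level, above each of those 8 markers, of which the highest stood at 8.64%. In fibroblast-like nuclei Pdgfrb stood at 12.3%, above 6 of the 8 markers, which summed to 7.46% and reached 23.6%. In endothelial-like nuclei Pdgfrb stood at 4.93% of its pericyte-like level (29.1 CPM), above 4 of the 8 pericyte markers, whose median was 8.37% and whose sum was at 19.8%. Thinned to 1500 UMIs, 58.1% of pericyte-like, 10.1% of fibroblast-like and 7.49% of astrocyte-like nuclei held a Pdgfrb UMI, against 0.777% of excitatory neuron-like nuclei, with median depths of 2827, 3570, 3600 and 9036 UMIs. The unthinned shares were 78.1%, 23.1%, 18% and 3.65%.

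Flt1, coding for VEGFR1, was 107-fold above the other gated nuclei in the endothelial-like gate, from 63.5-fold to 342-fold over libraries, the highest of the 14 folds called. Endothelial-like nuclei held 2950 CPM (2914 to 2986, 25367 UMIs), with 2944, 2960, 2776, 2602, 4037 and 3825 CPM in libraries 1 to 6. The highest values were in libraries 5 and 6, which had the fewest endothelial-like nuclei. Pericyte-like nuclei held 370.2 CPM (336 to 407), a 7.97-fold lower level (7.25 to 8.78), and lay below the endothelial-like level in 6 of 6 libraries. With nuclei of several gates kept, the log2 ratio fell from 2.99 to 1.37. Pericyte-like and smooth muscle-like levels (301 CPM) did not differ beyond counting error. In fibroblast-like nuclei Flt1 was at 115 CPM (103 to 129), and in microglia-like, astrocyte-like and OPC-like nuclei at 57.8, 44.8 and 41.3 CPM. The 4 neuronal gates and the mature oligodendrocyte-like gate held the least, 17.6 to 26.4 CPM. The excitatory neuron-like values were 15.3, 20.5, 21.5, 29.5, 8.30 and 7.47 CPM in libraries 1 to 6, lowest in the same libraries 5 and 6 that were highest in endothelial-like nuclei. Thinned shares were 92.9% in endothelial-like nuclei, 40.2% in pericyte-like nuclei and 3.16% in excitatory neuron-like nuclei, the gate of lowest Flt1 level. Unthinned they were 96.9%, 57.9% and 14.4%, with median depths of 3216, 2827 and 9036 UMIs.

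Endothelial markers accompanied Flt1 in pericyte-like nuclei. The 16 markers summed to 939.6 CPM there (469 to 1131 over libraries), 8.98% of their endothelial-like sum, with none at 0, while Flt1 was at 12.55% of its endothelial-like level, above 11 of the 16. Their part in the pericyte-like Flt1 level was not tested. In fibroblast-like nuclei Flt1 was at 3.91% and the markers at 5.60%, and in excitatory neuron-like nuclei Flt1 was at 0.595% and the markers at 1.71%, so in both gates Flt1 lay below the summed markers of its main gate.

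Kdr, coding for VEGFR2, the main signalling receptor of VEGF-A, was likewise highest in endothelial-like nuclei, at 306 CPM (294 to 318, 2631 UMIs). Libraries 1 to 6 held 313, 307, 304, 234, 409 and 460.4 CPM, again highest in libraries 5 and 6 and lowest in library 4. Pericyte-like nuclei held 62.1 CPM (48.7 to 78.1), 4.92-fold less (3.90 to 6.30), with the endothelial-like gate higher in 6 of 6 libraries and a log2 ratio of 1.14 in place of 2.30 when nuclei of several gates were kept. Within the run from the ependymal-like gate at 29.2 CPM to the striatal projection neuron-like gate at 8.99 CPM, no neighbouring pair in the order differed beyond counting error, and excitatory neuron-like nuclei held 7.23 CPM. Kdr in pericyte-like nuclei was at 20.3% of its endothelial-like level, above 11 of the 16 endothelial markers. Of 2153 endothelial-like nuclei with a Flt1 UMI after thinning, 34.5% also held a Kdr UMI (32.5 to 36.6), against 18.9% (13.2 to 25.7) of 164 nuclei without Flt1. The intervals did not overlap, but they take nuclei pooled over the libraries as independent, and the difference was not tested.

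**Figure D3:**
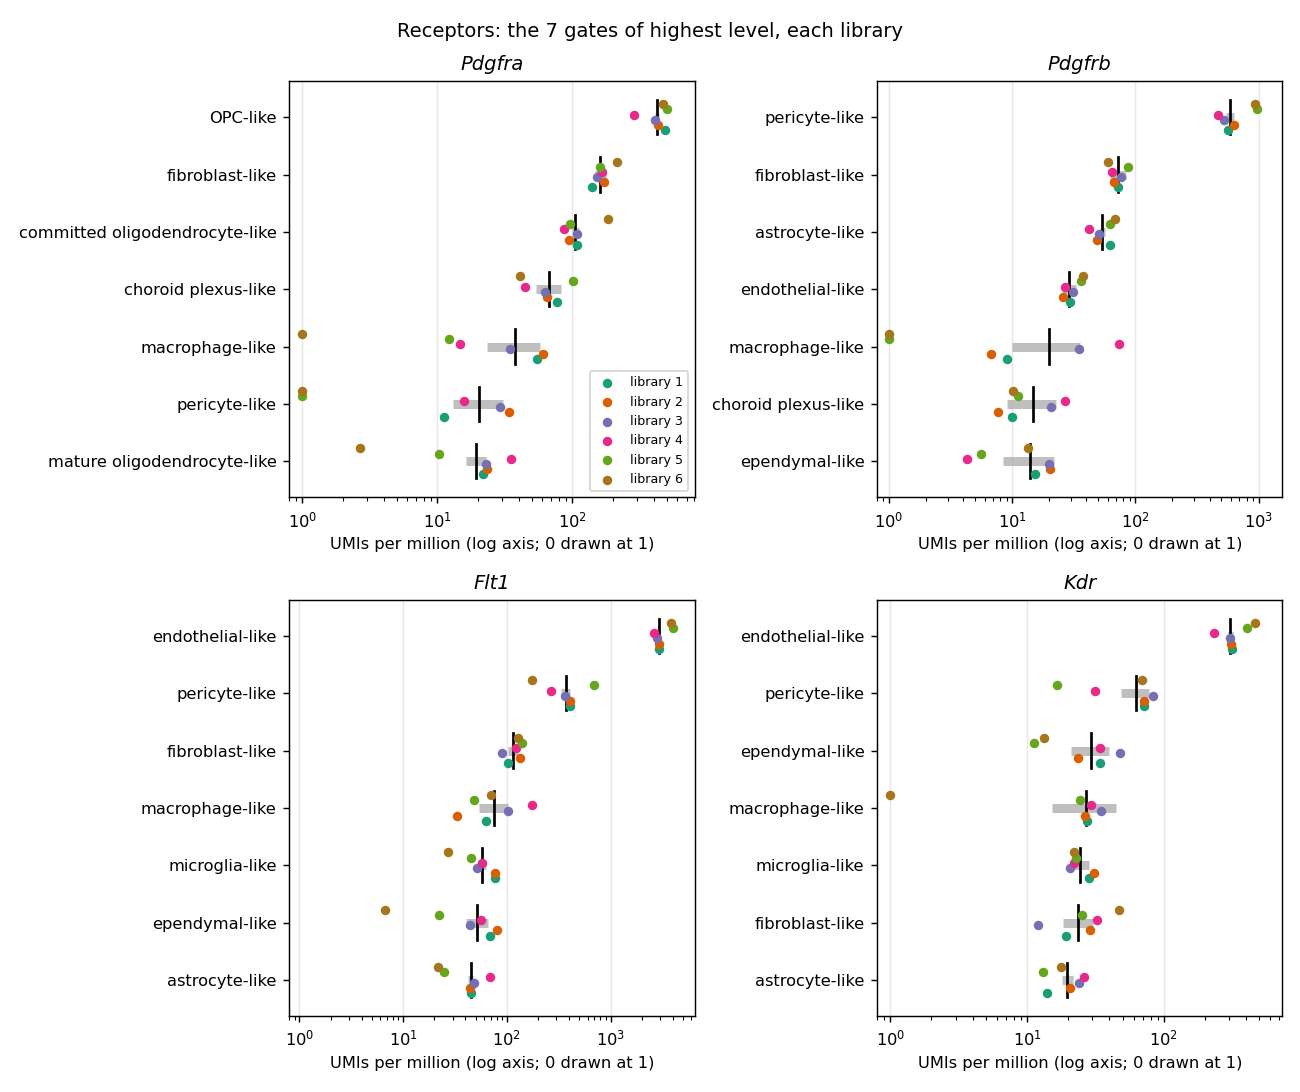
Receptor levels in CPM (x axes, log scale, 0 drawn at 1) in the 7 gates of highest pooled level (y axes), leaving out the smooth muscle-like gate of 18 nuclei; coloured dots are the 6 libraries, black ticks the pooled level and grey bars its 95% counting interval. In each panel the top gate lay above the second gate in every library, for Kdr by a log2 ratio of 1.88 or more.

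Of 2350 endothelial-like nuclei, 96 were arterial-like, 898 capillary-like and 326 venous-like, by at least 2, 4 and 2 markers. The rest, with too few markers or markers of several parts, entered no part. Flt1 was at 3334 CPM (3128 to 3549) in arterial-like, 3153 CPM (3090 to 3217) in capillary-like and 2034 CPM (1952 to 2119) in venous-like nuclei. Arterial-like was 1.64-fold above venous-like (1.52 to 1.77) in 5 of 5 libraries with arterial-like nuclei, and capillary-like was 1.55-fold above venous-like in 6 of 6. Library 6 had no arterial-like nucleus and library 5 had 5. Kdr was at 275, 314 and 230.2 CPM in the same order. It was 1.36-fold higher in capillary-like than venous-like nuclei (1.19 to 1.57) in 6 of 6 libraries, while the arterial-like to capillary-like ratio of 0.876-fold (0.689 to 1.10) was within counting error. Its log2 value was -0.49 without library 3, past counting error, and 0.028 without library 1. Pdgfb, the gene of the ligand that endothelium releases toward pericytes, was at 136 CPM (96.9 to 185) in arterial-like, 164 CPM (150.3 to 180) in capillary-like and 127 CPM (107 to 150) in venous-like nuclei. Its arterial-like to capillary-like ratio, 0.825-fold (0.582 to 1.14), was within counting error, but not without library 2 (log2 -0.94). The capillary-like level was above the venous-like level by 1.29-fold (1.07 to 1.57) in 4 of 6 libraries, but was below it by -0.065 (log2) when nuclei were thinned, and within counting error without library 3 (0.28) or library 4 (0.30).

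Pdgfb over all gates was highest in endothelial-like nuclei, at 165 CPM (156 to 174, 1418 UMIs), with 175, 171, 156, 133, 209.5 and 217 CPM in libraries 1 to 6. It was 10.9-fold above excitatory neuron-like nuclei (10.2 to 11.7; log2 3.45, or 1.99 counted per nucleus), higher in 6 of 6 libraries. The microglia-like gate had 39.6 CPM (35.1 to 44.5), from 35.3 to 46.3 CPM over libraries, and were 4.0-fold above astrocyte-like nuclei (3.36 to 4.77), higher in every one of the 6 libraries, with a log2 ratio of 1.24 in place of 2.0 when nuclei of several gates were kept. In microglia-like nuclei Pdgfb was at 24.0% of its endothelial-like level, above 14 of the 16 endothelial markers, which summed to 540 CPM (392 to 591 over libraries) or 5.16%. Flt1 in the same nuclei was at 1.96%, above 1 of the 16. Pericyte-like nuclei, the cells that carry the receptor, held 30.6 CPM of the ligand (21.5 to 42.4). Within the run from the smooth muscle-like over the microglia-like and pericyte-like to the macrophage-like gate, no neighbouring pair differed beyond counting error. Excitatory neuron-like nuclei held 15.1 CPM and 40.9% of all gated Pdgfb UMIs, with 50.1% of all gated UMIs, and endothelial-like nuclei held 28.9% of the Pdgfb UMIs. Thinned shares were 19.8% in endothelial-like, 6.89% in microglia-like and 2.35% in excitatory neuron-like nuclei (39.3%, 10.9% and 13.3% unthinned), with median depths of 3216, 2413 and 9036 UMIs.

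Among the 16 undivided gates, the pooled Pdgfa level was highest in the choroid plexus-like and ependymal-like gates. Choroid plexus-like nuclei held 89.5 CPM (74.3 to 107, 121 UMIs) and ependymal-like nuclei 62.8 CPM (50.2 to 77.5, 86 UMIs). In libraries 1 to 6 the choroid plexus-like levels were 109.9, 69.1, 51.9, 71.0, 89.5 and 234 CPM, with library 6, which held 24 such nuclei, well above the rest. The choroid plexus-like gate was higher than the ependymal-like gate in 4 of 6 libraries, and the log2 ratio of 0.51 (0.10 to 0.93) was within counting error without library 1 (0.42), without library 6 (0.39), without libraries 5 and 6 (0.48) and in thinned nuclei (0.18). Both gates were above excitatory neuron-like nuclei (19.0 CPM), by 4.71-fold (3.89 to 5.66) and 3.31-fold (2.64 to 4.10), in 6 of 6 libraries. Counted per nucleus, these log2 ratios fell from 2.24 to 1.19 and from 1.73 to 0.28, the latter within counting error. The committed oligodendrocyte-like gate, at 51.4 CPM (47.1 to 56.0), was below the ependymal-like gate in 5 of 6 libraries, a pooled difference within counting error. It ranged from 18.8 to 71.2 CPM over libraries and was 3.29-fold above OPC-like nuclei (2.75 to 3.95), higher in 6 of 6 libraries. From the committed gate down to the striatal projection neuron-like gate (13.5 CPM), no gate differed from its neighbour in the order beyond counting error. Astrocyte-like and excitatory neuron-like nuclei held 17.0 and 19.0 CPM, a ratio of 0.894-fold (0.805 to 0.990) with the astrocyte-like level lower in 4 of 6 libraries, and this difference was within counting error without library 2, 4 or 5. OPC-like nuclei, which carry the receptor, held 15.6 CPM, with 2.39% of nuclei holding a UMI after thinning. That share was 10.5% in choroid plexus-like and 6.74% in committed nuclei.

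Pdgfc was at 20.4 CPM or more in each of the 16 gates. After mature oligodendrocyte-like nuclei (199 CPM), choroid plexus-like nuclei held 141 CPM (122 to 163) and macrophage-like nuclei 126 CPM (98.4 to 159), which did not differ beyond counting error. The mature levels were 209, 182, 164, 129, 238 and 193.5 CPM in libraries 1 to 6, and the mature gate was 4.49-fold above OPC-like nuclei (log2 ratio 2.01 to 2.32) in 6 of 6. Choroid plexus-like nuclei were 3.52-fold above ependymal-like nuclei (2.59 to 4.84), also in 6 of 6 libraries. The macrophage-like level was 3.87-fold above the microglia-like level (2.92 to 5.08) in 5 of 6 libraries, but it ranged from 24.3 to 282 CPM over libraries that held 15 to 52 such nuclei, and without library 3 the log2 ratio was 1.41 in place of 1.95. Astrocyte-like nuclei held 71.9 CPM, and fibroblast-like nuclei 51.1 CPM, 0.711-fold of it (0.593 to 0.847) and lower in 5 of 6 libraries, which was within counting error in thinned nuclei (log2 -0.21 in place of -0.49). Neurons differed among themselves: excitatory neuron-like nuclei held 52.7 CPM (51.5 to 54.0), 2.01-fold above inhibitory neuron-like nuclei at 26.2 CPM (1.87 to 2.17) in 6 of 6 libraries, and striatal projection neuron-like nuclei held 34.9 CPM. Among excitatory nuclei chosen by a minimum of UMIs of 1 gene (2 for Tfap2d, 8 for Rorb), those positive for Tfap2d held 83.8 CPM (72.4 to 96.6), those for Tle4 54.5 CPM, for Cux2 46.2 CPM, for Rorb 28.7 CPM (26.4 to 31.1) and for Tcf7l2 25.5 CPM. Tfap2d-positive nuclei were 2.93-fold above Rorb-positive nuclei (2.47 to 3.45) and higher in 6 of 6 libraries. Their levels in libraries 1 to 6 were 119.5, 74.5, 83.6, 30.9, 96.9 and 73.9 CPM, with library 4 near the Rorb-positive level of 24.8 CPM there. Without the deepest nuclei the log2 ratio was 2.28 in place of 1.55. Pdgfa was also compared among these neurons: Cux2-positive nuclei held 19.0 CPM and Rorb-positive nuclei 14.9 CPM, 1.27-fold less (1.10 to 1.48) and lower in 6 of 6 libraries. The log2 ratio of 0.35 was 0.24, within counting error, with 1 more marker required of excitatory nuclei and 1.16 in thinned nuclei. Thinned shares of nuclei with Pdgfc were 25% in mature oligodendrocyte-like, 18.8% in choroid plexus-like and 3.24% in endothelial-like nuclei, the lowest gates being endothelial-like and pericyte-like at 21.0 and 20.4 CPM (52.7%, 41.9% and 7.02% unthinned, with median depths of 5315, 4401 and 3216 UMIs).

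Vegfa, the ligand of both VEGF receptors, was highest in astrocyte-like nuclei at 156 CPM (151 to 161, 3938 UMIs). Libraries 1 to 6 held 165, 149.9, 139, 135, 182 and 191 CPM, above every other gate in each library. Choroid plexus-like nuclei followed with 81.4 CPM (66.9 to 98.1), 0.522-fold of the astrocyte-like level (0.428 to 0.631) and lower in 6 of 6 libraries. OPC-like nuclei held 53.5 CPM (49.1 to 58.1), from 41.4 to 64.6 CPM over libraries, and were 4.29-fold above excitatory neuron-like nuclei (3.89 to 4.72) in 6 of 6. Astrocyte-like nuclei were 12.5-fold above excitatory neuron-like nuclei (11.8 to 13.2), which held 12.5 CPM. Counted per nucleus, the log2 ratios to excitatory neurons fell from 3.64 to 2.32 for astrocyte-like and from 2.1 to 0.82 for OPC-like nuclei. Astrocyte markers in OPC-like nuclei summed to 679 CPM (561 to 746 over libraries), 11.5% of their astrocyte-like sum, and Vegfa there was at 34.3%, above each of the 14 markers. Endothelial-like nuclei, which carry the receptors, held 20.4 CPM of the ligand, not different beyond counting error from microglia-like nuclei at 21.1 CPM. Thinned shares were 21.0% in astrocyte-like, 7.25% in OPC-like and 2.51% in excitatory neuron-like nuclei (41.5%, 17.7% and 11.5% unthinned). After thinning, 8.70% of astrocyte-like nuclei with Vegfa (7.23 to 10.4) and 7.17% of those without it (6.46 to 7.92) held Pdgfrb, with overlapping intervals and no test of the difference.

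**Figure D4:**
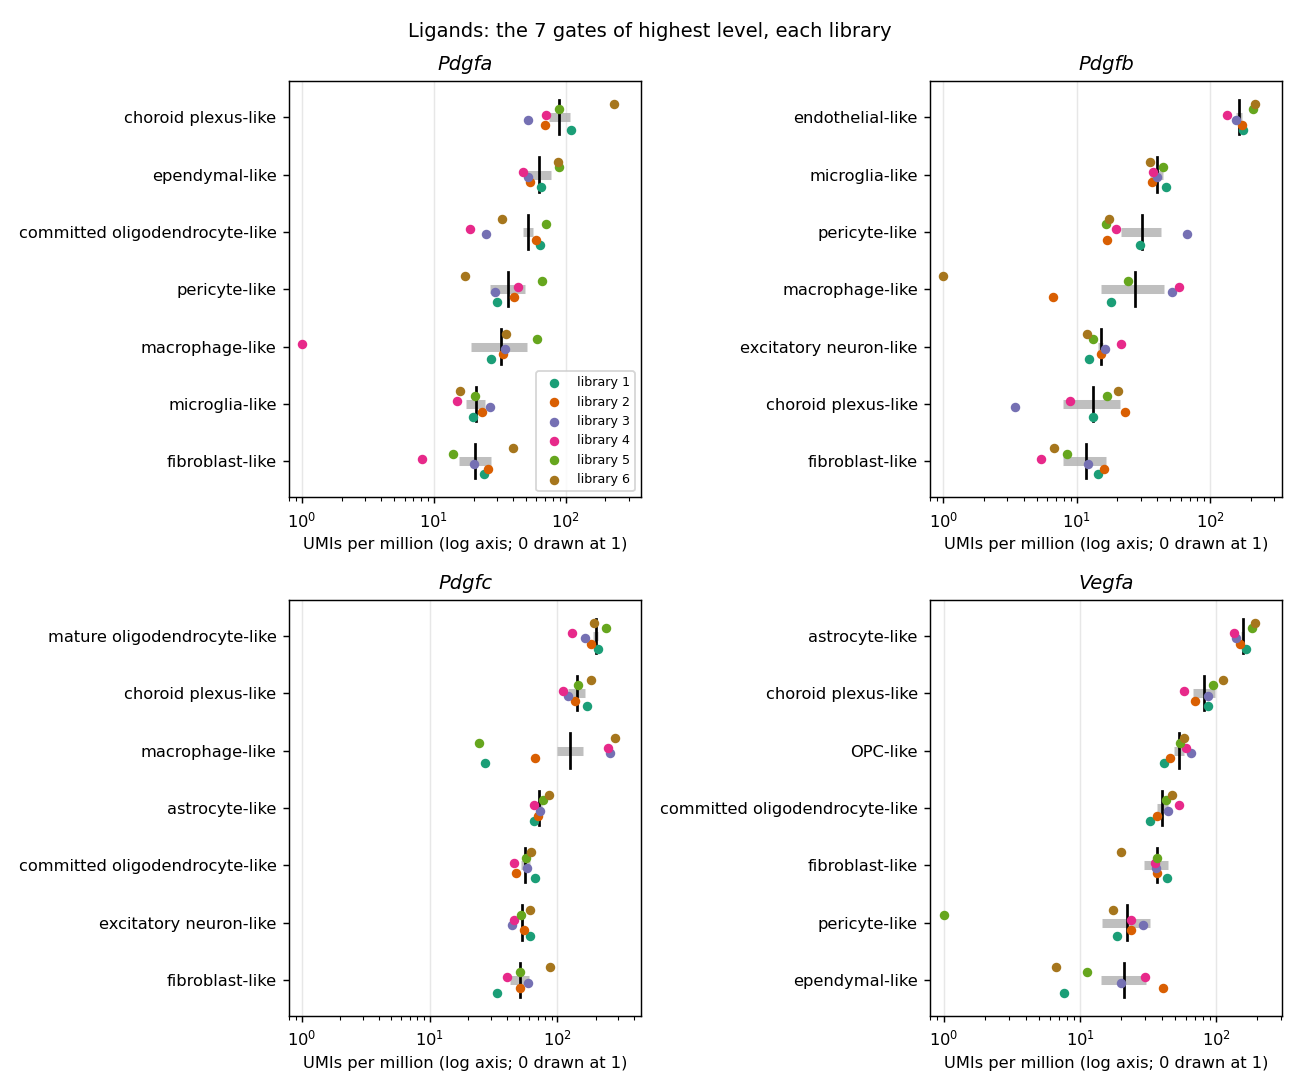
Ligand levels in CPM (x axes, log scale, 0 drawn at 1) in the 7 gates of highest pooled level (y axes), leaving out the smooth muscle-like gate; coloured dots are the 6 libraries, black ticks the pooled level and grey bars its 95% counting interval. Pdgfc in macrophage-like nuclei ran from 24.3 to 282 over the libraries, and Vegfa in astrocyte-like nuclei from 135 to 191.

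Of 18 ratios between gates that were planned, 16 lay outside counting error and 2, the arterial-like to capillary-like ratios of Kdr and Pdgfb, did not (plot of the ratios). The range over libraries was wider than the counting interval for most of them. Another 20 ratios, chosen after these levels were seen, are named with their values above or in the closing text.

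**Figure D5:**
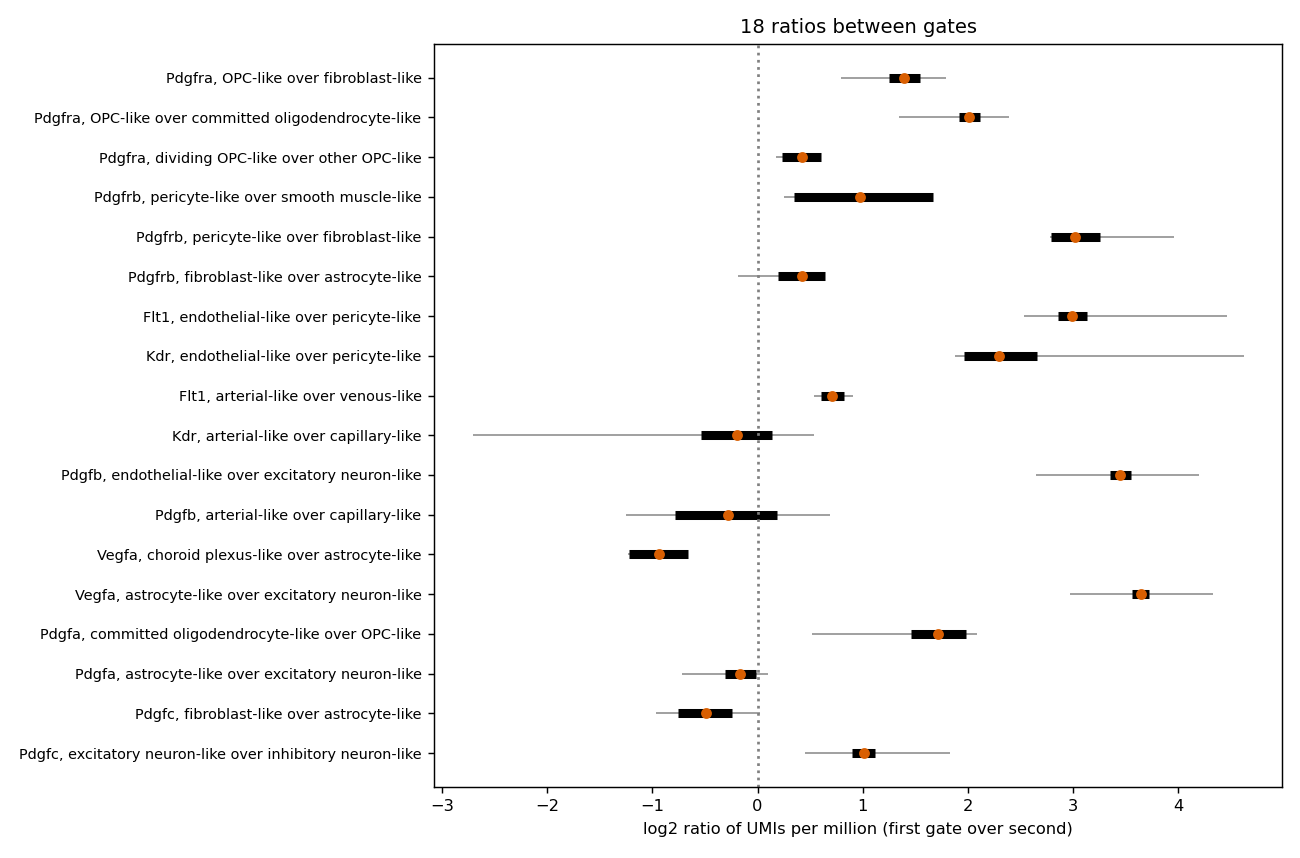
The 18 planned ratios of CPM between gates as log2 values (x axis; rows name gene, first gate and second gate). Orange points are the pooled ratios, thick black bars their 95% counting intervals and thin grey lines the range over the libraries with UMIs in both gates; values right of the dotted line are higher in the first gate, as for Vegfa in astrocyte-like over excitatory neuron-like nuclei at 3.64.

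Other genes of these pathways were read from lists chosen for their role. Of 5 further ligands of the families, 4 were called in at least 1 gate, where 36.5% of all 18958 genes were. Pdgfd, coding for a second PDGFRβ ligand, was at 718 CPM (701 to 736) in endothelial-like nuclei and at 501 CPM in choroid plexus-like nuclei, and Vegfc, a lymphatic growth factor, at 59.4 CPM in fibroblast-like nuclei. Vegfb was not called in any gate, with its highest level, 32.1 CPM, in ependymal-like nuclei. Among 7 receptors and relatives, Flt4 (VEGFR3) was at 56.9 CPM in endothelial-like nuclei, and the co-receptor Nrp1 at 537 CPM in macrophage-like and 371 CPM in endothelial-like nuclei. Kit, which lies between Pdgfra and Kdr, was at 57.1 CPM in inhibitory neuron-like and 56.7 CPM in fibroblast-like nuclei.

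Of 10 endothelial genes that VEGF signalling is known to induce, 7 were called in endothelial-like nuclei, where 8.49% of all genes were, with a median log2 ratio of 3.05 (0.14 for all tested genes). The list was chosen as endothelial genes, so this count is a description and does not bear on signalling. Nos3 (endothelial nitric oxide synthase) was at 134 CPM, Cd34 at 126 CPM and Angpt2 at 72.1 CPM there. Plvap, a marker of leaky vessels, and Esm1, a tip cell gene, were not called there and had their highest levels in neuronal gates, at 8.74 and 1.69 CPM. Kcne3 had 13 UMIs in all and was not tested. Of 10 hypoxia and HIF genes, 4 were called in endothelial-like nuclei: Epas1 (HIF-2α, 556 CPM), Slc2a1 (the glucose transporter of the blood-brain barrier, 495 CPM), Ldha (106 CPM) and Ankrd37 (43.6 CPM). In astrocyte-like nuclei, the main gate of Vegfa, Epas1 was the 1 gene of the 10 called, where 7.41% of all genes were, a share near the background. Of 9 feedback genes of receptor tyrosine kinase signalling, 3 were called in OPC-like nuclei (Spry1, Spry4 and Etv4) against 2.31% of all genes, and 2 in pericyte-like nuclei (Spry2 and Spry4) against 2.83%. In the astrocyte-like (Etv4), endothelial-like (Dusp6) and macrophage-like (Etv1) gates 1 of the 9 was called each. This is near the share of all genes in the first (7.41%) and second (8.49%). The share in the macrophage-like gate is not given here. The median log2 ratio of the 9 genes was 0.79 in pericyte-like, 0.76 in astrocyte-like and 0.45 in OPC-like nuclei, with 0.13, 0.13 and 0.06 for all tested genes. Receptors were also called in the fibroblast-like, committed and endothelial-like gates, where the medians of the 9 genes were -0.13, -0.21 and -0.047. All tested genes had medians of 0.25, 0.025 and 0.14 there. None of the 9 was called in the fibroblast-like or committed gate. Etv4 was at 86.2 CPM in astrocyte-like and 83.9 CPM in OPC-like nuclei, and a PDGF receptor was called in both gates. Whether these values go with receptor signalling was not tested.

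The genes most like each member over the 16 gates were named by Pearson's correlation of log2(CPM + 1), as a description over gates that share libraries and depth. For Flt1 these were Apcdd1, Foxq1 and Eng (0.98 each), for Kdr Pglyrp1 (0.97), Ramp2 (0.95) and Thsd1 (0.95), and for Pdgfb Sh2d3c (0.92), Def6 (0.91) and Cnot6l (0.91), all 9 highest in endothelial-like nuclei. Pdgfrb was most like Cd248 (0.94), Axl (0.94) and Slc30a10 (0.93), and Pdgfra most like Fip1l1 (0.88), C430049B03Rik (0.86) and Rnf43 (0.85). Among the genes most like Vegfa were Gdf11 (0.86) and Gldc (0.85). Pdgfc was most like Itpk1 (0.81), Pikfyve (0.80) and Wdr91 (0.78), and Pdgfa most like Slc39a9 (0.86), Fam161a (0.83) and 2610301B20Rik (0.82). The smooth muscle-like gate of 18 nuclei, where 1 UMI is 14.3 CPM, weighed as much as any other gate. Gdf11, Cd248 and Axl had their highest levels there, at 14.3, 43.0 and 57.3 CPM. Among the members themselves Flt1 and Kdr were the closest pair (0.90), and Vegfa was near 0 with Flt1 (0.06) and Kdr (0.02).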

How the data were processed

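Nuclei from flash-frozen forebrain of 3 WT and 3 Npc1-/- mice were profiled with 10x Genomics 3' droplet chemistry. The authors deposited 1 matrix of whole-number UMI counts, not normalized. Its header names Cell Ranger 6.0.0, the submitters' processing notes name Cell Ranger 2.1.1 and mm10, and the study's methods name STARsolo with GRCm38. Which of these made the matrix is not settled here. No doublet caller was run: nuclei passing more than 1 unrelated gate were set aside, and their levels are given apart. A nucleus passing both gates of a related pair went to the later or narrower one (committed over OPC, macrophage over microglia). The members, marker lists, gates and ratios were chosen with earlier results of these data known, and the number of markers per gate, the divisions of gates and the 20 unplanned ratios were set after seeing these values. Named genes were the members and, for each, the 3 genes of highest correlation with at least 500 UMIs and not on a marker list; 1 of these is not reported here. Levels are CPM, with exact Poisson intervals, and shares have Clopper-Pearson and ratios exact conditional binomial intervals (scipy 1.17.1, numpy 2.4.6, Python 3.11.15). Since the libraries could not be assigned to mice, no test between groups was run. The ratio and call functions were tested on simulated data. Alternatives were 1 more marker per gate, nuclei of several gates kept, depth and mitochondrial filters, TMM factors (edgeR 4.0.16), UMIs per nucleus, thinning to 1500 UMIs (3974 nuclei were shallower), and each library left out.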

Additional observations from a re-analysis of the deposited data

Results flagged for a closer look

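Nuclei that passed more than 1 unrelated gate entered none of the main ratios but held UMIs of every member. They made up 13.5% of nuclei and, being deeper, 22.9% of all UMIs. They held 50.3% of all Flt1 UMIs, 46.9% of those of Pdgfrb, 39.8% of those of Kdr and 34.3% of those of Pdgfb. For the other genes the shares were 29.1% for Pdgfra, 26.5% for Vegfa, 22.8% for Pdgfc and 22.4% for Pdgfa, the last 2 no higher than the share of all UMIs. Of these, 579 nuclei passed the endothelial and the pericyte gate and no other, with a median of 5975 UMIs against 3216 and 2827 UMIs in the single gates. They held 3316 CPM of Flt1, 399 CPM of Kdr, 384 CPM of Pdgfrb and 213 CPM of Pdgfb, so that genes of both cell types stood together in them, and they carried 16.8% of all Flt1 and 15.2% of all Pdgfrb UMIs.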

How the results depend on the processing

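No paired analysis was possible because the barcode suffixes could not be assigned to the mice, so the replicate numbers of the labels pair no libraries. The planned tests between WT and Npc1-/- within a gate, with edgeR, DESeq2 or a replicate block, were not run for the same reason. Of 18 planned ratios, 12 kept their direction and their side of counting error under all alternatives, as did 16 of the 20 added after seeing the data. Values are log2 ratios. Keeping nuclei of several gates took Pdgfrb, pericyte-like over smooth muscle-like from 0.97 to 0.32, within counting error, and TMM did so for Pdgfrb, fibroblast-like over astrocyte-like (from 0.42 to 0.19). Kdr, arterial-like over capillary-like (-0.19) passed counting error with 1 more marker (-0.45), several gates kept (-0.38) and TMM (-0.36), and ranged from -0.49 without library 3 to 0.03 (0.028) without library 1. Pdgfb, arterial-like over capillary-like (-0.28) ranged from -0.94 without library 2, past counting error, to -0.064. Pdgfa, astrocyte-like over excitatory neuron-like (-0.16) fell within counting error with 1 more marker (-0.10), several gates kept (-0.055), nuclei of 2000 UMIs or more (-0.15) and, added after seeing the data, without libraries 5 and 6 (-0.10), and without library 2, 4 or 5 (range -0.24 to -0.089). Pdgfc, fibroblast-like over astrocyte-like did so in thinned nuclei (from -0.49 to -0.21). Pdgfb, capillary-like over venous-like turned from 0.37 to -0.065 in thinned nuclei. Pdgfa, ependymal-like over excitatory neuron-like fell from 1.73 to 0.28 per nucleus, and Pdgfa, Cux2-positive over Rorb-positive excitatory went from 0.35 to 0.24 with 1 more marker and to 1.16 in thinned nuclei. Pdgfa, choroid plexus-like over ependymal-like (0.51) fell within counting error in thinned nuclei (0.18), without libraries 5 and 6 (0.48) and without library 1 or 6 (range 0.39 to 0.61). Flt1, fibroblast-like over excitatory neuron-like fell from 2.72 to 1.36 per nucleus. Keeping nuclei of several gates took Flt1 and Kdr, endothelial-like over pericyte-like, from 2.99 and 2.30 to 1.37 and 1.14. With 1 more marker, Pdgfra in OPC-like over committed nuclei went from 2.01 to 3.40. Counted per nucleus, the excess over excitatory neurons went from 3.45 to 1.99 for Pdgfb in endothelial-like nuclei and from 3.64 to 2.32 for Vegfa and from 3.75 to 2.42 for Pdgfrb in astrocyte-like nuclei. TMM factors ran from 0.761 in excitatory neuron-like to 1.38 in smooth muscle-like nuclei. At 4-fold in place of 2-fold, the rule called 0.675% of genes in OPC-like, 1.01% in committed, 1.85% in mature, 2.68% in astrocyte-like, 3.67% in endothelial-like, 1.33% in pericyte-like, 2.58% in fibroblast-like, 3.29% in ependymal-like and 2.17% in choroid plexus-like nuclei. The members still called were then Pdgfra in the first, Vegfa in the fourth, all 3 in the fifth, Pdgfrb in the sixth and both in the seventh, and the causes were not tested.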

Other observations

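Levels of 2 members in single gates, picked after all levels were seen, fell into separate ranges over the libraries. The labels assign these libraries to no genotype. Pdgfa in committed oligodendrocyte-like nuclei was at 63.7, 59.3, 24.9, 18.8, 71.2 and 33.1 CPM in libraries 1 to 6, with 3 libraries between 59.3 and 71.2 CPM and the other 3 between 18.8 and 33.1 CPM. The late part made up 24.4%, 28.3%, 12.2%, 14.4%, 25.9% and 17.8% of committed nuclei in the same libraries. In the middle part alone, Pdgfa was at 48.5, 51.0, 15.5, 20.2, 59.2 and 25.1 CPM in libraries 1 to 6. Mature nuclei made up 26.6%, 26.6%, 10.0%, 9.77%, 26.2% and 13.5% of the nuclei in the 3 lineage gates. Pdgfc in macrophage-like nuclei was at 27.2, 66.7, 259, 248, 24.3 and 282 CPM in libraries 1 to 6. Each value rested on 15 to 52 nuclei and on 2 to 30 UMIs. No test was run on these ranges, and how often other genes and gates show such ranges was not counted.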
